A study of Mus musculus with 6 samples.

Results

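The kinin and angiotensin genes described here are 7: the bradykinin receptors *Bdkrb1* and *Bdkrb2*, angiotensinogen (*Agt*), the peptidases *Ace* and *Mme*, and the angiotensin II receptors *Agtr1a* and *Agtr2*. They were picked by gene symbol, with the difference between the groups already in view, from the 18089 genes of the deposited table. A gene's value is the sum of the read counts estimated for its RefSeq transcripts. RNA came from the ischemic gastrocnemius, a calf muscle, of male C57BL/6 mice aged 8 to 10 weeks. All mice had undergone hindlimb ischemia (HLI), in which the left femoral artery is ligated and partly removed, and muscle was taken 7 days later. The 3 GPR174-KO muscles came from *Gpr174*-/Y mice, which lack the X-linked lysophosphatidylserine receptor GPR174 in every cell, and the 3 WT muscles came from littermates. No uninjured muscle is part of the comparison, and the deletion is not limited to one cell type.

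Kinins are short peptides cut from kininogens by kallikreins. They widen vessels and make them leaky through the bradykinin B2 receptor, which most vessels carry at rest, and through the B1 receptor, which is induced in injured and inflamed tissue and prefers kinins that have lost their last arginine. In the angiotensin system, renin cuts angiotensinogen to angiotensin I, and angiotensin-converting enzyme (ACE) on the endothelial surface cuts that to angiotensin II, which constricts vessels through the AT1 receptor. ACE also destroys bradykinin, so the 2 systems share an enzyme. Neprilysin, encoded by *Mme*, degrades bradykinin and natriuretic peptides and turns angiotensin I into angiotensin-(1-7).

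Estimated counts summed to between 18417107 and 18695036 in the WT libraries and between 19173051 and 19394505 in the GPR174-KO libraries. The deleted gene, *Gpr174*, was read 8, 2 and 5 times in the WT libraries and 1, 0 and 0 times in GPR174-KO. Genes of mature muscle fibres summed to between 48300 and 154000 CPM (counts scaled to a common library size) in every library, so the markers of the labelled tissue were present. Replicate 2 lay between replicates 1 and 3 in 86% (WT) and 76.5% (GPR174-KO) of 3859 abundant genes, and WT replicate 3 lay on the GPR174-KO side of its group for mature fibre genes (111000 CPM, against 154000 and 136000). If libraries varied independently in each gene, no replicate would lie between the others more often than the rest. The standard errors and p-values below treat the libraries of a group as independent, which was not tested. The edgeR quasi-likelihood test with Benjamini-Hochberg adjustment called 3891 of 14395 genes higher in GPR174-KO and 3972 lower, but with replicates 1 and 3 alone it called 0 (lowest adjusted p 0.0542), while 5026 genes had an unadjusted p under 0.05. The sample labels do not say that equal replicate numbers link libraries across the 2 groups.

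The start of *Ace* is shown because its transcripts begin at 2 places in the gene and their estimated counts differed in share between the groups. The somatic form starts at the first exon and has 2 catalytic domains. The shorter form, known from developing sperm, starts inside the gene, in the intron between exons 12 and 13 of the 25-exon transcript and 7241 bases after the first start. Both printed stretches run from 250 to 11 bases before the first base of the transcript, are written 5′ to 3′ on the plus strand and come from RefSeq on GRCm38.p6. Capitals mark matches to TATAAA or GGGCGG on either strand.
Ace, first start, chr11:105967698-105967937: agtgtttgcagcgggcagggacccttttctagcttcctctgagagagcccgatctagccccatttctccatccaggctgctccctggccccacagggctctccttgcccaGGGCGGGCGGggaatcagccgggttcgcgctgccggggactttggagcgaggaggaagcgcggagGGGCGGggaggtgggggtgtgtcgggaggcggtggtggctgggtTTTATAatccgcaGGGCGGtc
Ace, internal start, chr11:105974939-105975178: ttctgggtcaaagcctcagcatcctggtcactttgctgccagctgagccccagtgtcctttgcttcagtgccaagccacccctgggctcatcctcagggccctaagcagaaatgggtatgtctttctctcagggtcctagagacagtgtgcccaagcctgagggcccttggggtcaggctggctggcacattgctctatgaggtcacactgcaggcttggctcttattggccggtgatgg

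Motifs were searched in the whole RefSeq window, from 250 bases before the start to 50 after it, so 60 bases of each searched window are not printed. The first window holds 1 TATA match, which begins 31 bases before the start, and 4 GGGCGG matches, which begin 140, 136, 75 and 18 bases before it, the first 2 of them overlapping. The internal window holds no match to these letters, nor to TGACGTCA, TGANTCA or GCGNGGGCG. RefSeq windows were matched for 5 of the 7 genes, 8 windows in all. Over all 32851 windows of the same length, 13.6% held TATAAA, 35.7% GGGCGG, 1.79% TGACGTCA, 7.81% TGANTCA and 5.55% GCGNGGGCG. The *Agt* window had a TATAAA match 30 bases before its start, and the *Bdkrb2* and *Agtr2* windows had no match to any of the 5 motifs. The 3 windows of *Mme*, 2 of which overlap, held 5 GGGCGG matches and 1 TGANTCA site, which lies in both overlapping windows. *Bdkrb2* and *Bdkrb1* are neighbours on chromosome 12.

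Per length of transcript, in FPKM, which divides a count by transcript length and library depth, *Ace* was the most abundant of the 7 genes in WT muscle, at 35.7 ± 1.55 (SD, n = 3). *Agt* followed at 8.77 ± 1.76, *Agtr2* at 7.04 ± 0.375, *Agtr1a* at 5.52 ± 0.106, *Mme* at 2.37 ± 0.0721, *Bdkrb2* at 0.777 ± 0.137 and *Bdkrb1* at 0.43 ± 0.165. In that order the ranges of *Agt* and *Agtr2* overlapped, and those of *Bdkrb2* and *Bdkrb1* met at 0.62, while the other neighbours did not overlap. In GPR174-KO muscle the order by mean FPKM was *Ace* (22.0 ± 0.731), *Agt* (8.66 ± 0.212), *Agtr1a* (4.7 ± 0.341), *Agtr2* (4.59 ± 0.97), *Mme* (3.47 ± 0.304), *Bdkrb1* (1.95 ± 0.412) and *Bdkrb2* (1.12 ± 0.123). There the ranges of *Agtr1a* and *Agtr2* overlapped, as did those of *Agtr2* and *Mme*, and *Bdkrb1* stood above *Bdkrb2* with no overlap.

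In CPM, 2 of the 7 genes (*Bdkrb1* and *Mme*) were higher in every GPR174-KO library than in every WT library. In the same measure 3 (*Ace*, *Agtr1a* and *Agtr2*) were lower in every GPR174-KO library, and 2 (*Bdkrb2* and *Agt*) overlapped. Among all 14395 tested genes, 33.1% lay above without overlap and 32.4% below. Since the genes were chosen with this contrast in view, their differences are given as a description with no test. All 7 passed the filter on low counts, *Bdkrb1* through its GPR174-KO libraries. In bulk muscle, fewer cells of a type and less RNA per cell cannot be told apart.

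**Figure D1:**
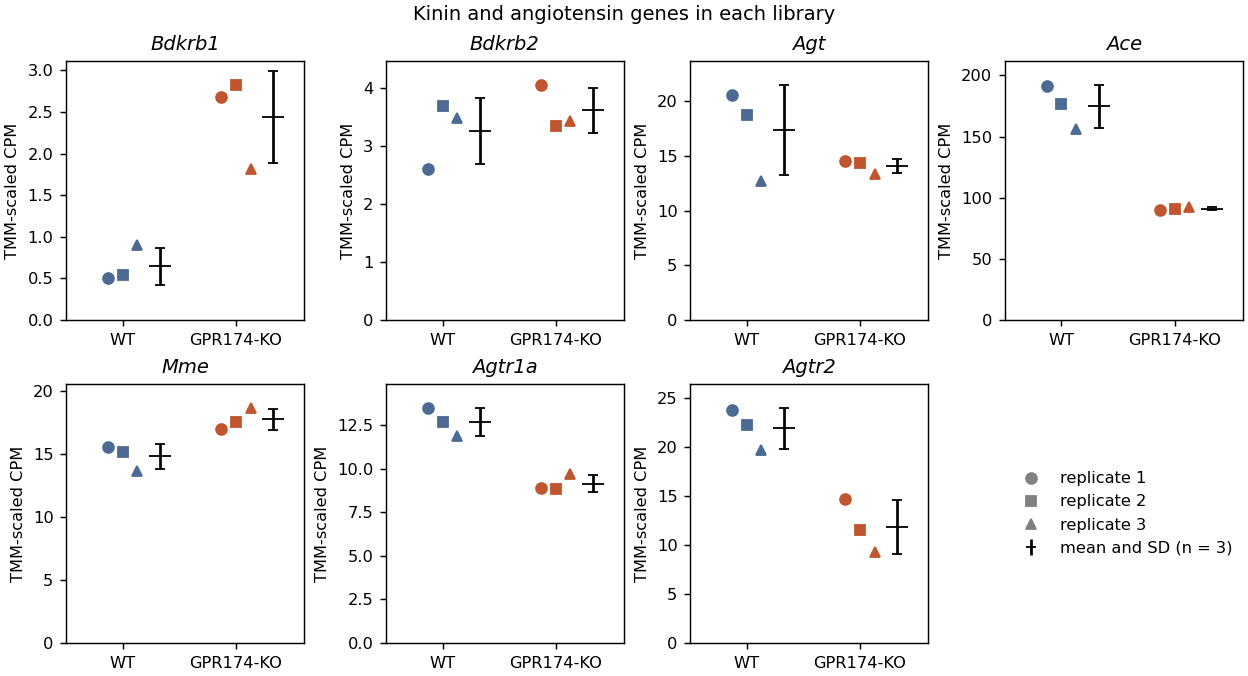
Level of each of the 7 genes in each library, in TMM-scaled CPM on linear axes that start at 0, with WT in blue and GPR174-KO in orange; marker shapes give the replicate number and black bars the mean and SD (n = 3). *Bdkrb1* and *Mme* lie higher in all 3 GPR174-KO libraries, *Ace*, *Agtr1a* and *Agtr2* lie lower, and *Bdkrb2* and *Agt* overlap.

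Among the kinin receptors, *Bdkrb1*, the inducible B1 receptor, had 8, 9 and 16 counts in the WT libraries (replicates 1, 2 and 3, the order used throughout) and 56, 60 and 39 in the GPR174-KO libraries. After scaling by edgeR's TMM method these were 0.498, 0.536 and 0.899 CPM against 2.68, 2.83 and 1.81 CPM. Every GPR174-KO library was above every WT library, and the means differed 3.79-fold. The log2 fold change was 1.90 ± 0.29 (SE), and 0.452% of the tested genes had a larger one. That place is a description and no test, since the gene was chosen with this contrast in view. The highest WT value was in WT replicate 3, without which the log2 fold change was 2.23. With 8 to 16 counts in the WT group, the fold rests on few reads.

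*Bdkrb2*, the constitutive B2 receptor, had 2.61, 3.69 and 3.48 CPM in the WT libraries and 4.06, 3.34 and 3.44 CPM in the GPR174-KO libraries. In these TMM-scaled values the groups overlapped, with a log2 fold change of 0.14 ± 0.16. The lowest WT and the highest GPR174-KO library each carried part of that value, which was 0.02 without WT replicate 1 and 0.05 without GPR174-KO replicate 1. Unscaled counts did not overlap, at 42, 62 and 62 in WT and 85, 71 and 74 in GPR174-KO. Nor did FPKM, at 0.62, 0.87 and 0.84 against 1.21, 0.98 and 1.17. As a ratio of FPKM, *Bdkrb1* stood to *Bdkrb2* at 0.516, 0.402 and 0.738 in the WT libraries and at 1.74, 2.31 and 1.26 in the GPR174-KO libraries. Per length, the B1 receptor transcript was thus the scarcer of the pair in all WT libraries and the more abundant in all GPR174-KO libraries. This ratio does not depend on how libraries are scaled. It does depend on transcript length and on how *Bdkrb2* reads were divided among transcripts. By counts, *Bdkrb2* stood above *Bdkrb1* in every library. The *Bdkrb2* counts were split among 3 transcripts, of which XM_006515442.4 held 22.67, 41.49 and 50.70 counts in WT and 68.65, 68.78 and 64.18 in GPR174-KO.

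Macrophage markers moved with *Bdkrb1*, and neutrophil markers went both ways. All 8 macrophage markers were called higher in GPR174-KO, and their summed level was 1410 to 2160 CPM in WT and 3250 to 3280 CPM in GPR174-KO. Of 7 neutrophil markers 3 passed the filter, 2 called higher and 1 lower, with sums of 22.4 to 29.1 and 33.4 to 36.7 CPM. Most of each sum came from *Csf3r*, 1 of those called higher. No marker of either list was at 0 in all libraries, but the neutrophil markers that the filter removed had few counts. *Ly6g* had 1 count in GPR174-KO replicate 3 and 0 elsewhere, and *S100a8*, *S100a9* and *Retnlg* had at most 15, 12 and 5 in any library. The part of macrophages and neutrophils in the *Bdkrb1* difference was not tested.

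On the angiotensin side, *Agt*, the precursor of all angiotensins, had 331, 316 and 226 counts in WT and 304, 305 and 289 in GPR174-KO. In CPM these were 20.6, 18.8 and 12.7 against 14.5, 14.4 and 13.4. The GPR174-KO libraries lay close together and inside the WT range, whose lower end was WT replicate 3. The log2 fold change was -0.30 ± 0.17, and it was -0.47 without WT replicate 3 and -0.15 without WT replicate 1. Of 5 adipocyte markers, from a cell type that makes angiotensinogen, 2 were called, both higher, with sums of 39.3 to 55.1 CPM in WT and 57.7 to 93.5 CPM in GPR174-KO.

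*Ace*, which makes angiotensin II and degrades bradykinin, had 3073, 2975 and 2785 counts in WT and 1880, 1930 and 1988 in GPR174-KO. The scaled levels were 191, 177 and 156 CPM against 89.8, 90.9 and 92.5 CPM. The GPR174-KO libraries agreed to within 1.32 CPM (SD) and all lay below the WT libraries, whose mean was 1.92-fold higher. The log2 fold change was -0.94 ± 0.08, and 5.89% of the tested genes had a lower one, again as a description and no test. Leaving out each library in turn gave values from -1.01 to -0.86.

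The lower *Ace* level was not spread evenly over its transcripts. NM_001281819.2 had 2007.38, 1943.81 and 1518.64 estimated counts in WT and 964.15, 875.99 and 1131.81 in GPR174-KO. NM_009598.3, the shorter form with the internal start, had 572.69, 577.22 and 638.79 in WT and 280.69, 274.31 and 299.38 in GPR174-KO. Its length, as implied by the ratio of count to FPKM, was 61.5% of the longest *Ace* transcript. The estimate for NM_207624.6 was not lower, with 492.92, 453.97 and 627.57 in WT and 635.15, 779.7 and 556.8 in GPR174-KO, and these ranges overlapped. Its implied length was 96.2% to 96.4% of that of NM_001281819.2, the longest. Within GPR174-KO, the library with the most counts of either of these long forms had the fewest of the other. Their split is therefore uncertain, and a difference between them was not tested. As shares of the gene, the short form made up 18.6%, 19.4% and 22.9% of *Ace* counts in WT and 14.9%, 14.2% and 15.1% in GPR174-KO, without overlap. Because short reads cannot always be assigned to one transcript, these shares are model estimates, and reads in the exons common to both forms are divided by the estimate.

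**Figure D2:**
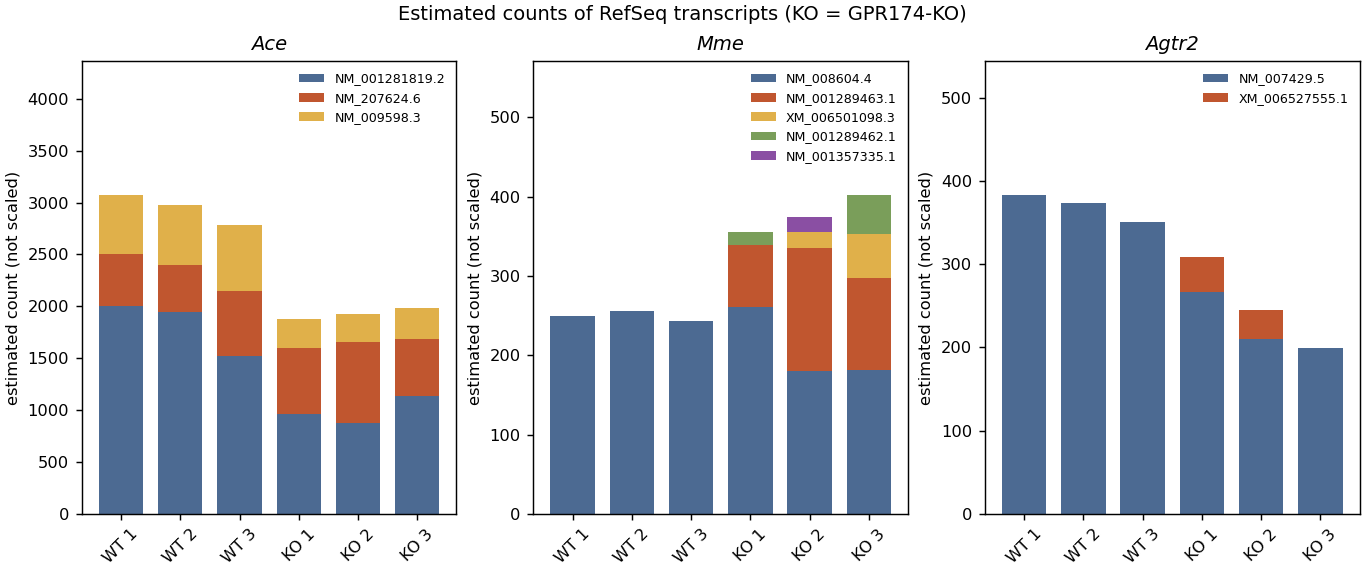
Estimated counts, not scaled for depth, of each RefSeq transcript of *Ace*, *Mme* and *Agtr2* stacked by library (vertical axes from 0; 3 WT and 3 GPR174-KO libraries). The *Ace* stacks are lower in GPR174-KO while the counts of NM_207624.6 overlap between the groups, and 4 of the 5 *Mme* transcripts and 1 of the 2 *Agtr2* transcripts have counts in GPR174-KO libraries only.

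Endothelial markers moved in the same direction as *Ace*. Of 10, 9 were called lower and 1, *Vwf*, higher, and their summed level was 1070 to 1270 CPM in WT and 683 to 771 CPM in GPR174-KO, with a median log2 fold change of -0.73. No marker of the list was at 0. Relative to the endothelial adhesion molecule *Pecam1*, in FPKM, *Ace* stood at 0.489, 0.490 and 0.473 in WT and at 0.350, 0.379 and 0.407 in GPR174-KO. Relative to the endothelial cadherin *Cdh5* the ratios were 0.363, 0.361 and 0.371 against 0.300, 0.327 and 0.359. In FPKM, both ratios were lower in every GPR174-KO library, the second by as little as the difference between 0.361 and 0.359. By counts, *Ace* to *Cdh5* in GPR174-KO replicate 3 (1988 to 4778) was not below WT replicate 2 (2975 to 7258). FPKM ratios depend on how *Ace* reads were divided among transcripts. Ratios to the other markers were not taken. The log2 fold changes of the 9 lower markers ran from -0.97 (*Cldn5*) to -0.49 (*Emcn*), and that of *Ace* was -0.94. The part of endothelial cells in the *Ace* difference was not tested further.

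**Figure D3:**
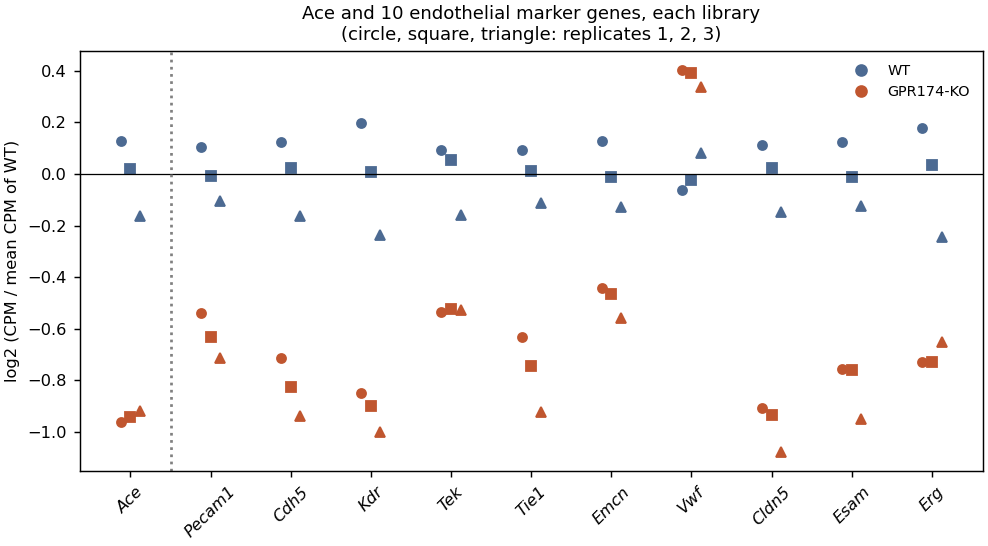
*Ace* (left of the dotted line) and 10 endothelial marker genes, each library's CPM as log2 of its ratio to the WT mean, with WT in blue and GPR174-KO in orange. *Ace* and 9 markers lie below the WT libraries in all 3 GPR174-KO libraries, and *Vwf* lies above them.

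*Mme*, which encodes neprilysin, had 250, 256 and 243 counts in WT and 355, 374 and 402 in GPR174-KO. In CPM these were 15.6, 15.2 and 13.7 against 17.0, 17.6 and 18.7. The groups did not overlap, but the difference was small, a log2 fold change of 0.26 ± 0.07 or 1.2-fold between the means. The higher sum came from transcripts that were listed at 0 in the WT libraries. NM_008604.4 took up all WT counts, and in GPR174-KO it had 260.86, 180.54 and 181 counts, so that taken alone its log2 fold change was -0.58. The other 4 transcripts were listed at 0 in every WT library and together held 94.14, 193.46 and 221 counts in GPR174-KO, most of them in NM_001289463.1 (77.64, 155.28 and 116.46). A listed 0 can also be a failed estimate.

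*Ace* and *Mme* both encode enzymes that degrade bradykinin, and the ratio of their transcripts is given without a measure of protein or activity. In FPKM this ratio was 15.6, 14.7 and 14.9 in WT and 6.65, 6.39 and 5.98 in GPR174-KO. With *Ace* lower and *Mme* higher in every GPR174-KO library, the groups could not overlap in it. *Ace* was the more abundant enzyme transcript in every library, and the ratio varied little within each group. The ratio of *Ace* to *Agt*, the gene of the angiotensin precursor, was 3.7, 3.77 and 5.04 in WT and 2.43, 2.48 and 2.7 in GPR174-KO, again without overlap.

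Of the angiotensin II receptors, *Agtr1a* encodes the AT1a receptor, which carries most of the constricting action of angiotensin II. It had 217, 214 and 212 counts in WT and 186, 187 and 209 in GPR174-KO. The scaled levels of 13.5, 12.7 and 11.9 CPM and of 8.89, 8.81 and 9.72 CPM did not overlap. The log2 fold change was -0.48 ± 0.08, with the WT mean 1.39-fold higher. Its split among 4 transcripts varied between libraries of the same group, for example 41.31, 122.78 and 177.79 counts of XM_011244264.2 in the WT libraries. *Agtr1b*, a near-identical copy of the gene, had at most 3 counts in every library, and reads that match both genes may have been divided between them.

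*Agtr2* encodes the AT2 receptor, which opposes many effects of AT1 and is abundant in fetal tissue and in injured tissue. Its counts were 383, 373 and 350 in WT and 308, 245 and 199 in GPR174-KO. In CPM these were 23.8, 22.2 and 19.7 against 14.7, 11.5 and 9.26. All GPR174-KO libraries were lower, the WT mean was 1.85-fold higher, and the log2 fold change was -0.89 ± 0.17. The GPR174-KO libraries were spread more widely than for *Ace*, and the log2 fold change ran from -1.07 without GPR174-KO replicate 1 to -0.74 without GPR174-KO replicate 3. NM_007429.5 held all counts in WT and in GPR174-KO replicate 3, while XM_006527555.1 had 41.33 and 34.68 counts in GPR174-KO replicates 1 and 2. The FPKM ratio of *Agtr1a* to *Agtr2* was 0.765, 0.765 and 0.827 in WT and 0.802, 1.01 and 1.38 in GPR174-KO, and these overlapped.

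Vessel-wall and connective tissue cells carry AT1, AT2 and neprilysin, and their markers did not move in one direction. Of 9 mural cell markers 4 were called higher, among them *Tagln* (log2 fold change 1.01), and 4 lower, among them *Kcnj8* (-1.12), with sums of 1340 to 1460 CPM in WT and 1480 to 1620 CPM in GPR174-KO. Of 8 fibroblast markers 2 were called higher, the collagens *Col1a1* and *Col3a1*, and 4 lower, with sums of 12100 to 17100 and 20800 to 23800 CPM. All 10 mature fibre markers were called lower, from sums of 111000 to 154000 CPM in WT to 48300 to 55000 CPM in GPR174-KO. Of 8 regenerating fibre markers 6 were called higher, with sums of 2560 to 5140 and 5170 to 6020 CPM. Of 5 tendon markers 2 were called higher and 3 lower (883 to 1070 and 1120 to 1140 CPM), and of 4 Schwann cell markers 1 was called lower (34.5 to 63.6 and 27.4 to 43.3 CPM). Each sum follows the most abundant markers of its list. For tendon that was *Thbs4*, at 613 to 832 CPM in WT and 929 to 947 CPM in GPR174-KO, and for fibroblasts the 2 collagens. The B cell marker *Cd79a* and the T cell markers *Cd3e* and *Cd4*, which alone of their lists passed the filter, had edgeR adjusted p of 0.123, 0.664 and 0.113. The part of these cells in the receptor differences was not tested.

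The size of most differences depended on how the libraries were scaled. With total counts in place of TMM the median log2 fold change of all genes moved from 0.00 to 0.28. *Bdkrb1* then moved to 2.16, *Mme* to 0.54, *Bdkrb2* to 0.41, *Ace* to -0.66, *Agtr2* to -0.61, *Agtr1a* to -0.20 and *Agt* to -0.02, and no gene of the 7 changed sign.

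**Figure D4:**
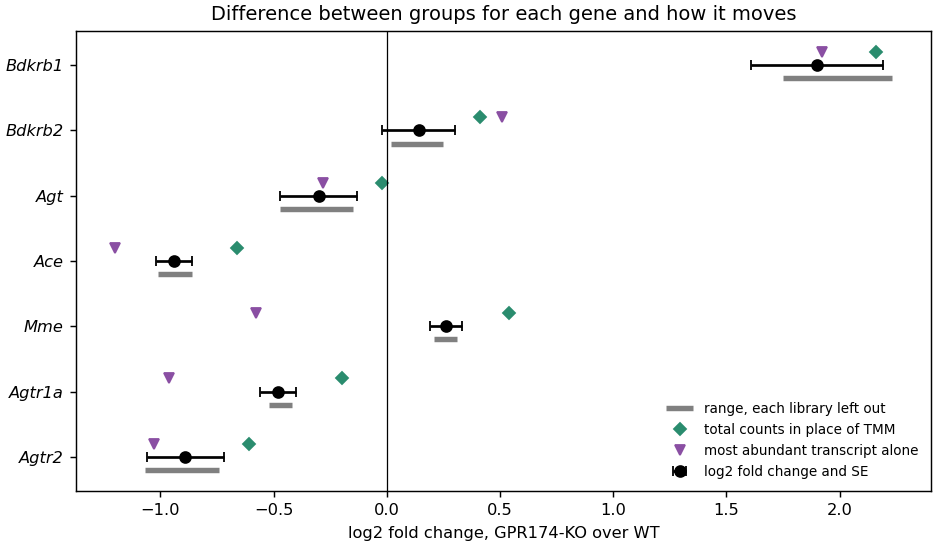
Log2 fold change of GPR174-KO over WT for the 7 genes (horizontal axis; points with bars are the edgeR estimate and its SE, n = 3 per group), with the range when each library is left out in grey, the value under total-count scaling as green diamonds and the value for the most abundant transcript alone as purple triangles. Total-count scaling shifts all 7 genes to the right, and *Mme* changes sign when only its most abundant transcript is used, from 0.26 to -0.58.

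Around these 7 genes, 61 other genes of the pathway were listed by role, and 47 passed the filter. In the edgeR test 16 of the 47 (34.0%) were called higher in GPR174-KO and 13 (27.7%) lower, where 27.0% and 27.6% of all tested genes were called, so the shares were near the background. Their median log2 fold change was 0.08, against 0.00 for all genes. With total-count scaling the calls were 26 higher and 8 lower, where 7303 and 2010 genes were called in all. At most 3 counts in every library were found for *Kng1*, *F12*, *Ren1*, *Ctsg*, *Agtr1b*, *Mrgprd* and *Tac1*. These include a kininogen (*Kng1*), coagulation factor XII (*F12*) and renin (*Ren1*). The other kininogen, *Kng2*, named after its values were seen, had 4, 1 and 6 counts in WT and 10, 11 and 13 in GPR174-KO and was removed by the filter.

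Of the kinin-forming genes 3 passed the filter. *Prcp*, a prolylcarboxypeptidase that activates prekallikrein and trims angiotensin II, was called higher (log2 fold change 0.19 ± 0.05, edgeR adjusted p = 0.0159) and the other two were not called. Without WT replicate 2 *Prcp* had an adjusted p of 0.0719 in the same test.

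Of 8 other kinin-degrading peptidases, 3 were called higher and 3 lower. Carboxypeptidase M (*Cpm*), which removes the last arginine of kinins and so makes B1 receptor agonists, fell from 7.05 ± 1.96 to 2.61 ± 0.201 CPM (log2 fold change -1.43 ± 0.22, edgeR adjusted p = 0.00243). *Dpp4*, a surface dipeptidyl peptidase, fell by 0.64 on the log2 scale. The intracellular oligopeptidase *Thop1* rose from 38.9 ± 1.75 to 61.0 ± 3.17 CPM (0.65 ± 0.06, edgeR adjusted p = 0.000792). *Nln* (0.27), *Xpnpep1* (0.14) and *Xpnpep2* (-0.63) passed by less, with edgeR adjusted p of 0.0184, 0.0405 and 0.0483. Leaving out 1 library raised these to as much as 0.0773 for *Nln*, 0.147 for *Xpnpep1* and 0.196 for *Xpnpep2*, the first of them without GPR174-KO replicate 2 or 3 or WT replicate 2, and both aminopeptidases P in every case but without WT replicate 3. DESeq2 called neither of these (adjusted p of 0.111 and 0.161).

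Of the angiotensin-forming genes other than *Agt* and *Ace*, 2 were called higher and 2 lower. The lysosomal protease *Ctsd* rose from 917 ± 72.4 to 1510 ± 54.8 CPM (log2 fold change 0.72 ± 0.09, edgeR adjusted p = 0.00139), and the prorenin receptor *Atp6ap2* rose by 0.39. The mast cell chymases, which form angiotensin II without ACE, fell, *Mcpt4* by 1.11 (edgeR adjusted p = 0.0155) and *Cma1* by 0.85 (edgeR adjusted p = 0.0245) on the log2 scale. Both chymases are also on the mast cell marker list. Of its other markers that passed the filter, *Cpa3* (log2 fold change -1.63) and *Tpsb2* (-1.07) were called lower and *Kit* was not (0.05, edgeR adjusted p = 0.626). The whole list summed to 36.0 to 55.4 CPM in WT and 33.3 to 36.6 CPM in GPR174-KO, and the part of these cells was not tested. *Cma1* was called in only 1 of the 6 fits that leave out 1 library (without WT replicate 3), and *Mcpt4* missed the threshold without GPR174-KO replicate 1 or 2 or WT replicate 2, with adjusted p of up to 0.0824 and 0.0579.

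Of 7 angiotensin-processing enzymes 4 were called higher and 1 lower. The neprilysin relative *Mmel1* rose from 1.39 ± 0.343 to 3.66 ± 0.312 CPM (log2 fold change 1.38 ± 0.19, edgeR adjusted p = 0.00167). Aminopeptidase N (*Anpep*), which trims angiotensin III, rose by 0.86, and *Rnpep*, aminopeptidase B, by 0.45. *Enpep*, aminopeptidase A, which turns angiotensin II into angiotensin III and marks pericytes, fell by 0.51 (edgeR adjusted p = 0.0293), a call lost without GPR174-KO replicate 2 or 3 and without WT replicate 1 or 2 (adjusted p up to 0.0815).

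Among receptors and their partners, 1 of 3 was called. *Mtus1*, which encodes an AT2 receptor-interacting protein, fell from 124 ± 22.0 to 71.9 ± 3.81 CPM (log2 fold change -0.78 ± 0.13, edgeR adjusted p = 0.00314). Of the 10 genes through which these receptors signal, 3 were called higher and 2 lower. Endothelial nitric oxide synthase (*Nos3*), which kinin receptors activate, fell from 38.4 ± 1.36 to 21.9 ± 1.65 CPM (-0.81 ± 0.07, edgeR adjusted p = 0.0007), and the endothelial markers above moved the same way. The G protein subunit *Gnaq* (0.32), the phospholipase *Plcb3* (0.36) and the arrestin *Arrb2* (0.57) rose. The receptor kinase *Grk5* fell by 0.29 (edgeR adjusted p = 0.0254), but the call was lost in 5 of the 6 fits that leave out 1 library, all but that without WT replicate 3 (adjusted p up to 0.1), and with total-count scaling its log2 fold change was -0.02.

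Of 7 genes known to respond to angiotensin II, 3 were called higher and 1 lower. The NADPH oxidase subunit *Cyba*, which macrophages also carry, rose by 0.89 on the log2 scale (edgeR adjusted p = 0.00228) and *Rgs2*, a brake on Gq signalling, by 0.41. The calcineurin regulator *Rcan1* fell by 1.08. Of 5 neprilysin substrates and their receptors that passed the filter, 3 were called, all of them lower. *Tac4* (0.47) and *Nppc* (-0.21) were not called. Of the 3 that the filter removed, *Nppb*, named after its values were seen, had 0, 2 and 1 counts in WT and 7, 9 and 4 in GPR174-KO. *Nppa* and *Tac1* overlapped between the groups. The natriuretic peptide receptors *Npr1* and *Npr3* fell by 0.79 and 1.39 (edgeR adjusted p of 0.000871 and 0.00249), and adrenomedullin (*Adm*) fell by 0.47 (edgeR adjusted p = 0.0167), a call lost without GPR174-KO replicate 1 or 2 or WT replicate 2 (adjusted p up to 0.0741).

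**Figure D5:**
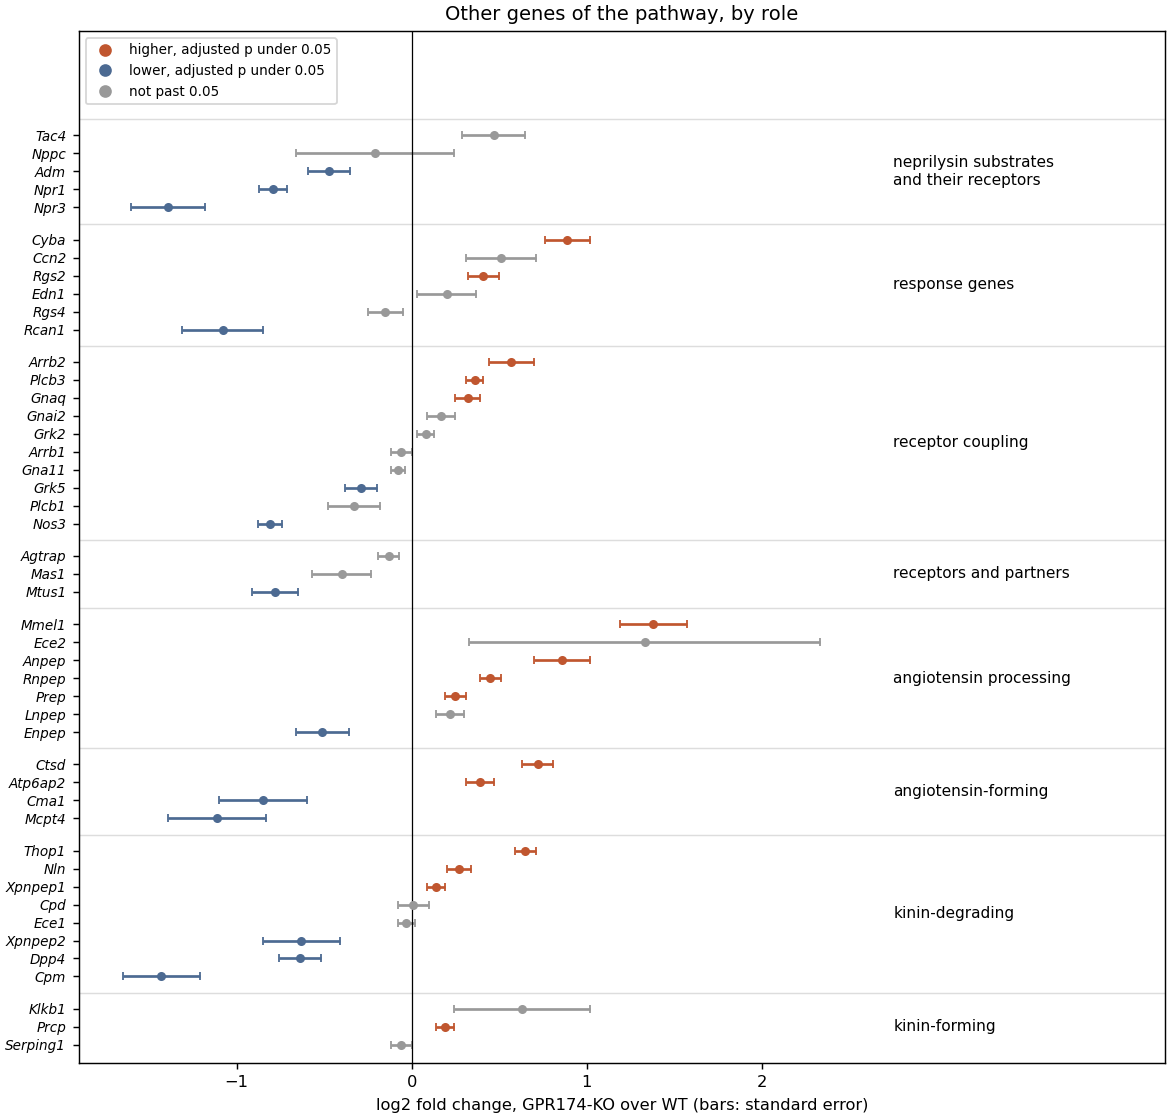
Log2 fold change of GPR174-KO over WT, with SE, of other pathway genes that passed the filter, grouped by role (1 of the 47 is not shown); orange genes were called higher and blue genes lower at an adjusted p under 0.05 (edgeR, all 14395 genes), and grey genes were not called. In 5 of the 8 role groups genes were called in both directions, while the 3 calls among neprilysin substrates and their receptors are all lower. The 2 genes of that group that were not called differ in sign.

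Of the 28 called pathway genes that the rule for naming picked, 19 kept it whichever library was left out, and all 28 kept the sign of their log2 fold change in every fit made. With replicates 1 and 3 alone none of the 28 was called, in the comparison where no gene was. Taking only the most abundant transcript of each gene ended 11 of the calls in the same edgeR test. The log2 fold changes of *Cpm* (-1.99 ± 1.79, adjusted p = 0.435) and *Npr3* (-1.93 ± 1.78, 0.449) were then larger in size with a wider error, and those of *Nos3* (-0.17 ± 1.36, 0.935), *Plcb3* (0.08 ± 0.17, 0.766) and *Dpp4* (-0.37 ± 0.12, 0.0583) were smaller. Total-count scaling ended those of *Adm* (0.177), *Cma1* (0.0614), *Enpep* (0.166), *Grk5* (0.842) and *Xpnpep2* (0.195).

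Likeness across libraries was read from the Pearson correlation of log2 CPM over the 6 libraries, among 13631 genes. The libraries fall in 2 groups, so genes that differ between the groups are alike by that alone, and 24.6% of genes had r above 0.9 with *Ace*, 22.3% with *Bdkrb1*, 22.5% with *Agtr1a* and 17.0% with *Agtr2*. Among the most alike genes were *Atp5md* for *Ace* (r = 0.9998), *Pom121* and *Creld2* for *Bdkrb1* (0.9985 and 0.9984), *Art5* and *Vwa3a* for *Agtr1a* (0.9997 and 0.9983), and *Mterf4* and *Fgf18* for *Agtr2* (0.9993 and 0.9982). *Mme*, *Agt* and *Bdkrb2* had fewer genes above 0.9, 2.96%, 3.23% and 0.345% of those compared. Their most alike genes were *Prdm1* and *Nras* (0.9983 and 0.9978), *Rmdn2* and *Shisa2* (0.9974 and 0.9932), and *Tmem81* and *Pacc1* (0.9749 and 0.9734).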

How the data were processed

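Per the submitters' processing notes, reads were handled with HISAT2 2.0.4, Bowtie2 2.2.5 and RSEM 1.2.12 against GRCm39; the strand setting and annotation release are not given in the sources used here. The table deposited by the authors gives, for 58843 RefSeq transcripts, an expected count per library (estimated reads, not normalized), and the deposited table also holds FPKM and TPM, of which TPM and the group means were not used. Expected counts were summed per Entrez gene and rounded, and FPKM was summed per gene.

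Genes were compared with edgeR 4.0.16 (TMM scaling, filterByExpr with its defaults, quasi-likelihood F-test with robust estimation, Benjamini-Hochberg over all 14395 tested genes, adjusted p under 0.05) in R 4.3.3, tested on simulated data. CPM are TMM-scaled. Standard errors come from that fit. A count of 3, 0.155 to 0.163 CPM before TMM scaling, was taken as the smallest detectable, for counting error only. The methods give 3 samples per group without saying that each was a separate mouse, so p-values measure the spread between these samples, which may be technical.

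The 7 genes, the 8 pathway lists and the 13 cell marker lists were chosen with earlier results of these data known. Pathway genes named are up to 3 per role and direction with the lowest adjusted p, and those with at most 3 counts in every library; for likeness, the 2 genes with the highest r and a mean of at least 1 CPM. Some genes that the rule picked are not reported here. Alternatives were DESeq2 1.42.0, total-count scaling, omitting the filter, requiring 10 counts in each library, the most abundant transcript of each gene, a replicate block, each library left out, and replicates 1 and 3 alone. Promoter windows are RefSeq's on GRCm38.p6, another build than the files'.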

Additional observations from a re-analysis of the deposited data

How the results depend on the processing

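With total counts in place of TMM the log2 fold changes were 0.41 for *Bdkrb2*, -0.66 for *Ace*, -0.02 for *Agt*, -0.20 for *Agtr1a*, -0.61 for *Agtr2* and 0.54 for *Mme*, with 7303 genes called higher and 2010 lower, 26 and 8 of them in the pathway lists. The most abundant transcript alone gave 0.51 for *Bdkrb2*, -1.20 for *Ace*, -0.96 for *Agtr1a* and -0.58 for *Mme*, the only reversal, with 2213 genes called higher and 2411 lower and 6 pathway genes lower. Replicates 1 and 3 alone gave 0 calls in each direction (5026 genes and 19 pathway genes at an unadjusted p under 0.05 in edgeR). Leaving out each library gave 1.75 to 2.23 for *Bdkrb1*, 2651 to 4626 genes higher, 2806 to 4539 lower, 924 to 1826 past both thresholds (1192 with all libraries, 1826 without WT replicate 3), 13 to 21 pathway genes higher and 7 to 14 lower (8 without GPR174-KO replicate 1, 7 without GPR174-KO replicate 2 and 7 without WT replicate 2). A replicate block gave 3305 genes higher and 3507 lower, 15 and 11 of them pathway genes, and 1.88 for *Bdkrb1*; the calls of *Cma1* (0.0587), *Mcpt4* (0.0555) and *Xpnpep1* (0.0953) were lost. The labels do not say whether same-numbered libraries were handled in pairs. Their deviations from the group means correlated at 0.000544, -0.000914 and -0.0164, which with 3 libraries per group cannot decide it. DESeq2 called 3275 genes higher and 3540 lower, 16 and 12 of them pathway genes. The minimum of 10 counts gives no value for *Bdkrb1*, whose WT counts limit its precision.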
